A study of Mus musculus with 6 samples.

Results

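The mitotic spindle and kinetochore genes are 38 genes, of 24054 in the expression table. They were picked by symbol for their textbook roles in cell division, with earlier results of these data known. They comprised 8 kinases, cyclins and phosphatases of mitotic entry, 4 subunits of the chromosomal passenger complex, 8 genes of the spindle checkpoint and anaphase, 7 of the centromere and kinetochore, 9 spindle motors and microtubule binders, and the chromosome genes Top2a and Mki67. All 38 were found and all 38 passed the filter on low values. They were measured by RNA-seq in c-Kit+ splenocytes of 6 mice, 1 library per mouse. c-Kit (CD117) is a receptor of blood stem and progenitor cells, against which the magnetic beads used to collect these cells were directed.

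Each mouse carried Flt3 ITD/ITD, an internal tandem duplication on both alleles of the receptor kinase gene Flt3. In the AML group (acute myeloid leukaemia) the 3 animals were Flt3 ITD/ITD, Dnmt3a fl/- with MxCre, and the 3 of the MPN group (myeloproliferative neoplasm) were Flt3 ITD/ITD, Dnmt3a fl/fl, with no Cre named in their titles. Dnmt3a encodes a de novo DNA methyltransferase, fl marks a floxed allele, and MxCre is a Cre recombinase driven by an interferon-responsive promoter. Whether the floxed allele had been excised is not stated, nor are ages. Dnmt3a genotype, Cre and disease differ between the groups at once and cannot be told apart. The comparison asks how transcript levels differ between the AML and MPN cells.

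A cell enters mitosis when cyclin B switches on the kinase Cdk1, with help from the Cdc25 phosphatases, Polo-like kinase and the Aurora kinases. Spindle microtubules then attach to kinetochores, protein plates built on the centromere of each chromosome. The spindle checkpoint holds back the anaphase-promoting complex until every kinetochore is attached, and its release lets separase cut the cohesin that joins sister chromatids. Transcripts of these genes accumulate in dividing cells late in the cell cycle, and bone marrow and leukaemic progenitors are known to divide often. In bulk RNA, fewer cells of a type and less RNA per cell cannot be told apart.

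Dnmt3a, the gene that differs between the genotypes, stood at 11.5 to 13.5 TPM (a transcript level scaled to length and to a fixed total per library) in the AML mice and at 29.3 to 33.9 TPM in the MPN mice, a level that also counts transcripts without the floxed exons. Kit, the gene selected for, stood at 99.2 to 129.7 and at 144.7 to 152.0 TPM. Between 11780 and 12034 genes per library reached 1 TPM, and relative depth ran from 0.742 in AML replicate 3 to 1.28 in AML replicate 1. MPN replicate 1 came from another sequencing run than the other libraries, per the file headers. The labels give no sex. It was inferred from Xist, the X-inactivation transcript, at 186.0 and 194.0 TPM in AML replicates 1 and 2, taken as the 2 females, and at no more than 0.06 TPM in the others, taken as males. Where nothing else is said, tests were made with limma on log2(TPM + 1), with Benjamini-Hochberg adjustment over 12223 genes, and a gene is named as passing at an adjusted p under 0.05. The p-values weigh each group difference against the spread between these mice, as limma moderates it over all tested genes. They do not separate the groups from sex or sequencing run.

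Most mitotic genes stood a little higher in AML, and few differed beyond the spread between mice. Ect2, Mad2l1, Cdc20 and Cdca8 rose in AML, Pttg1 fell, and the other 33 did not pass. The 5 that passed are 13.2% of the members, while 30.1% of all tested genes passed. By direction, 10.5% of the members rose against 20.1% of tested genes, and 2.63% fell against 10%. The log2 fold change of AML over MPN was above 0 for 33 members (86.8%) and for 61.4% of tested genes, and over the alternative settings it was above 0 for 27 to 37 members. Its median was 0.23 for the members and 0.13 for tested genes, with members between -0.41 and 0.71. With a term for sex, which sets AML replicate 3, the AML mouse inferred to be male, against the 3 MPN mice, these medians were 0.07 and 0.10. The members' median was 0.15 without AML replicate 1, 0.15 without MPN replicate 3 and 0.11 with array weights, where tested genes had 0.11, 0.07 and 0.08. All 3 AML mice stood above all 3 MPN mice for 14 members, against 34.8% of tested genes, and below them for 1, against 16.1%. The groups overlapped for the remaining 23, while they did not overlap for 50.9% of tested genes.

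No member changed by 2-fold or more, as 15.2% of tested genes did. The 95% interval of the log2 fold change lay between -1 and 1 for 36 of 38 members (94.7%), and for 65.9% of tested genes. The exceptions were Ect2, with an interval from 0.25 to 1.18, and Cdk1, whose interval ended at 1.0007. The median standard error was 0.16 for the members and 0.18 for tested genes. Without adjustment, 9 members (23.7%) and 43.6% of tested genes had a p under 0.05.

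**Figure D1:**
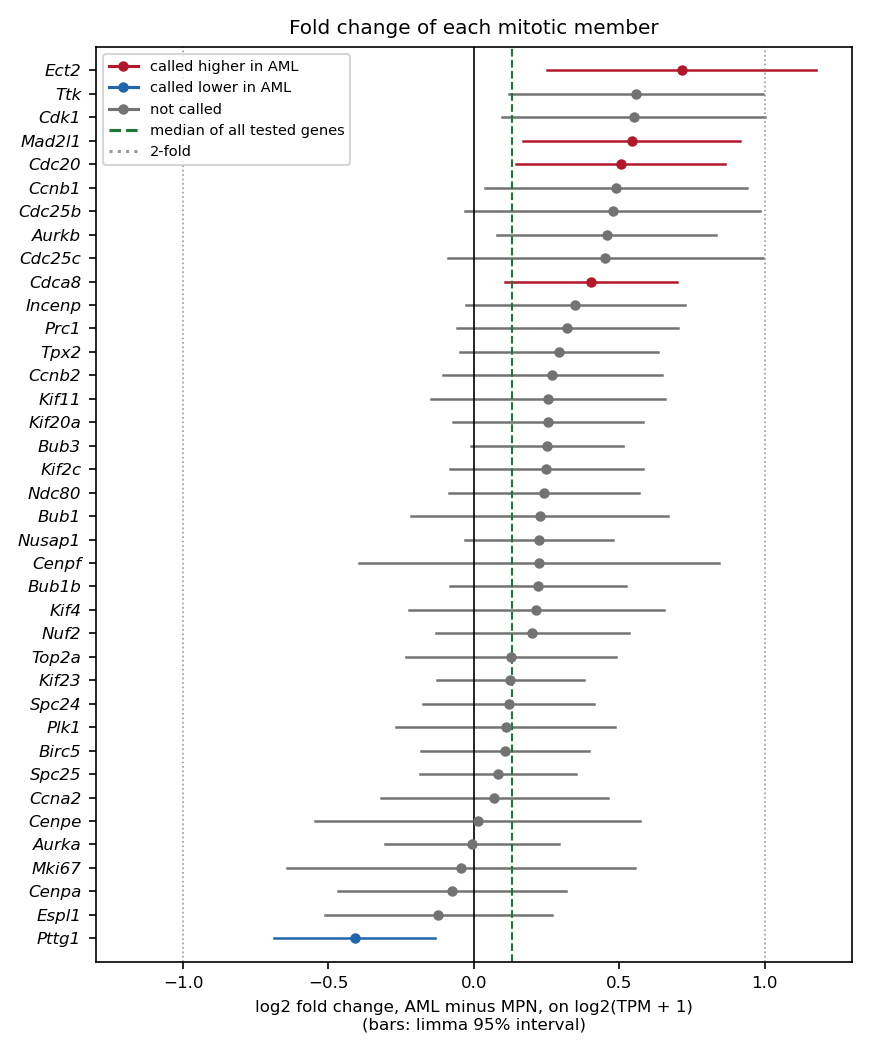
Log2 fold change of AML over MPN for each of the 38 members, on the log2(TPM + 1) scale, with limma's 95% interval (bars), n = 3 mice per group. Of the points, 33 lie above 0, and the intervals of all but Ect2 and Cdk1 lie between the dotted 2-fold lines. The dashed line is the median of all tested genes, 0.13.

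The members that passed are named first. Ect2, an exchange factor that switches on RhoA for cytokinesis, stood at 42.9, 32.5 and 28.7 TPM in AML replicates 1 to 3 and at 23.4, 22.1 and 16.5 TPM in MPN replicates 1 to 3. Every AML mouse was above every MPN mouse. The means were 34.7 ± 7.36 and 20.7 ± 3.67 TPM (SD, n = 3), a log2 difference of 0.71 ± 0.20 (SE) with a limma adjusted p of 0.0323. Ect2 (ENSMUSG00000027699) lies on GRCm38 at chr3:27097222-27153878 on the minus strand.

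Mad2l1 encodes Mad2, the checkpoint protein that binds and restrains Cdc20. It stood at 98.5, 77.7 and 71.7 TPM in the AML mice and at 61.8, 59.3 and 47.7 TPM in the MPN mice. The groups did not overlap, and AML replicate 1 was the highest and MPN replicate 3 the lowest. The log2 difference was 0.54 ± 0.16 (SE), with a limma adjusted p of 0.0398. Mad2l1 (ENSMUSG00000029910) lies at chr6:66535390-66547220 on the plus strand.

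Cdc20, the activator of the anaphase-promoting complex and the target of Mad2, stood at 136.5, 111.1 and 96.3 TPM in the AML mice and at 83.9, 85.6 and 70.6 TPM in the MPN mice. Here too the groups did not overlap, with the same mice at the ends. The log2 difference was 0.50 ± 0.15 (SE), with a limma adjusted p of 0.0435. Cdc20 (ENSMUSG00000006398) lies at chr4:118432901-118437352 on the minus strand, where the annotation has the gene Elovl1 overlapping on the other strand.

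Cdca8 encodes borealin, a subunit of the chromosomal passenger complex that helps bring Aurora B to centromeres. Its levels were 125.8, 105.0 and 100.9 TPM in the AML mice, against 81.8, 91.4 and 76.7 TPM in MPN. The groups did not overlap. The log2 difference was 0.40 ± 0.13 (SE), with a limma adjusted p of 0.0488. Cdca8 (ENSMUSG00000028873) lies at chr4:124918465-124939311 on the minus strand and overlaps 9930104L06Rik on the other strand. Among the members, 10 overlap a protein-coding gene on the other strand, and the sources used here do not give whether the counting used strand, so levels of Cdc20 and Cdca8 may hold reads of the partner.

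Pttg1, or securin, the inhibitor that holds separase inactive until anaphase, went the other way. It stood at 43.3, 46.6 and 42.1 TPM in the AML mice and at 52.7, 64.4 and 59.6 TPM in the MPN mice. All AML mice were below all MPN mice, at a mean of 74.7% of the MPN level. The log2 difference was -0.41 ± 0.12 (SE), with a limma adjusted p of 0.0374. Pttg1 (ENSMUSG00000020415) lies at chr11:43420250-43426251 on the minus strand.

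**Figure D2:**
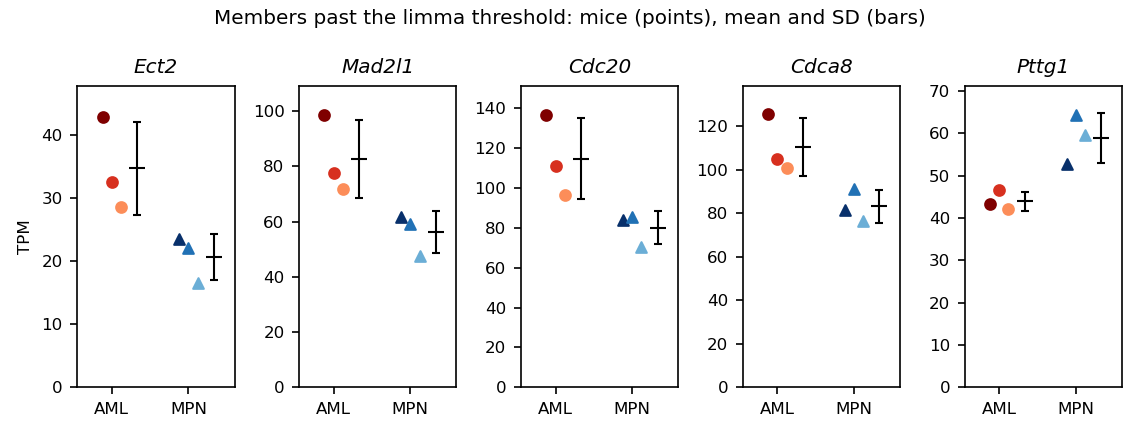
TPM of the 5 members that passed, with 1 point per mouse (circles AML, triangles MPN, replicates 1 to 3 from left to right) and the mean and SD of each group of 3 beside the points. Ect2, Mad2l1, Cdc20 and Cdca8 are higher in every AML mouse, and Pttg1 is lower in every AML mouse, for example 42.1 to 46.6 against 52.7 to 64.4 TPM.

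Each of these calls ended in some fits that left out 1 mouse. Those of Ect2, Mad2l1, Cdc20 and Cdca8 ended without AML replicate 1, AML replicate 2, MPN replicate 1, MPN replicate 2 or MPN replicate 3 (limma adjusted p of 0.0533 to 0.132 over these fits) and held without AML replicate 3 (0.0233 to 0.0481), and that of Pttg1 ended without any 1 of the 6 (0.0542 to 0.154). Without AML replicate 1, which was highest for most members, the log2 differences were 0.56 for Ect2, 0.41 for Mad2l1, 0.37 for Cdc20, 0.31 for Cdca8 and -0.40 for Pttg1. Within the 1 sequencing run that held the other 5 libraries, so without MPN replicate 1, no member passed limma, while 18.6% of tested genes passed. In that fit 6 members had an unadjusted limma p under 0.05. The share of tested genes at that unadjusted limit was not counted, here or with the term for sex. With the term for sex no member passed limma, 1 had an unadjusted p under 0.05, and 9.88% of tested genes passed. With no filter on low values the calls of Ect2, Mad2l1, Cdc20 and Cdca8 ended (limma adjusted p of 0.0514 to 0.0611), and 20.6% of 17949 tested genes passed.

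Windows at the RefSeq transcription starts of these 5 genes were read for the letters of elements known from genes of late cell cycle expression. The cell cycle genes homology region (CHR) was searched as TTTGAA (form 1) and TTTAAA (form 2), the latter its own reverse complement, and the box bound by NF-Y as CCAAT, on both strands. The stretches below run from 150 bases before to 30 after the RefSeq transcription start (GRCm38.p6), 5′ to 3′ along the gene, with the matches in capitals, where ATTGG is the NF-Y box on the other strand. Ccnb1, cyclin B1, is added as a gene with form 2.
Ect2 (chr3:27153825-27154004, minus strand): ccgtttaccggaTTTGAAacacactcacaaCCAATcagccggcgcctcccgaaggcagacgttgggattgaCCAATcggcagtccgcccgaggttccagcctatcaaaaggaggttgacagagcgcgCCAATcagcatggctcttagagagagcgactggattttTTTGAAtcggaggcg
Cdc20 (chr4:118437314-118437493, minus strand): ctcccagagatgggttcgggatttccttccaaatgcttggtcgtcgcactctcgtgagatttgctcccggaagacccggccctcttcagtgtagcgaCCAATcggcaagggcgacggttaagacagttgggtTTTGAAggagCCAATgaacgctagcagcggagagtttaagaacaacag
Cdca8 (chr4:124936888-124937067, minus strand): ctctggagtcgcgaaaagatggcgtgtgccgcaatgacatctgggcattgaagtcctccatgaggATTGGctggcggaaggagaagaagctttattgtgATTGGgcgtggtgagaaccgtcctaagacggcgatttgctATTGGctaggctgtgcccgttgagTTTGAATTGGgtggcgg
Ccnb1 (chr13:100786457-100786636, minus strand): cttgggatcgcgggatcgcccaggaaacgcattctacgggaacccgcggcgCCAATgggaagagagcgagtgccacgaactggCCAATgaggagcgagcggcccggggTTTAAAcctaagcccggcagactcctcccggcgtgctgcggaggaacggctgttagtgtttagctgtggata
Mad2l1 (chr6:66535071-66535250, plus strand): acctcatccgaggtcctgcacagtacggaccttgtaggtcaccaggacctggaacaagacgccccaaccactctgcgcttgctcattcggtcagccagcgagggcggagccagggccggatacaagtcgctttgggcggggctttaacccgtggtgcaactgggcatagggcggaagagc
Pttg1 (chr11:43425952-43426131, minus strand): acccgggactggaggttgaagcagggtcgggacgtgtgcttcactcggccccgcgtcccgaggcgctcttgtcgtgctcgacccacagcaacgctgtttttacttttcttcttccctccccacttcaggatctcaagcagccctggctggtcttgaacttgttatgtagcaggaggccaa

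The Ect2 stretch held 2 matches of CHR form 1 and 3 NF-Y boxes, and the Cdc20 stretch held 1 and 2. In Cdca8 there was 1 CHR of form 1, from base 14 to 19 after the start, and 4 NF-Y boxes, of which 1 shares a base with the CHR. Mad2l1 and Pttg1, 1 higher and 1 lower in AML, had none of these letters in their windows of 300 bases, as was also so for Nuf2 and Nusap1. The RefSeq and GENCODE starts differ for some members. For Mad2l1 the RefSeq start lies 169 bases before the GENCODE start, and no GENCODE transcript starts in the window. For Pttg1 it lies 270 bases inside the GENCODE gene, at the start of a GENCODE transcript, and for Cdca8 it does so 2394 bases inside. The lack of matches in Mad2l1 and Pttg1 therefore holds for these windows and not for sequence at the outer GENCODE start. Of all 34 member windows, 6 did not reach the GENCODE gene start, and 2, those of Mad2l1 and Kif4, held no GENCODE transcript start.

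Of the 38 members, 31 had promoter windows in the RefSeq table, 34 windows in all, each from 250 bases before to 50 after a start. Bub3, Prc1 and Ect2 had 2 overlapping windows each, which were counted separately. CHR form 1 was in 73.5% of the member windows, in 12.1% of the 11706 windows of tested genes and in 17.9% of all 32851 windows. Form 2 was in 26.5%, 8.9% and 13.2%, and the NF-Y box in 79.4%, 38% and 37.4%. A CHR of either form together with an NF-Y box was in 73.5% of member windows and in 7.6% of windows of tested genes. Of the matches of form 1, 71.0% lay within 50 bases of the start in members and 23.4% in windows of tested genes, and that span is 33.3% of the window. Median GC content was 59.0% for the members and 60.7% for windows of tested genes. The elements are known from genes of this kind, so their high share in the members is no independent result. These are matches of letters and show no binding.

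**Figure D3:**
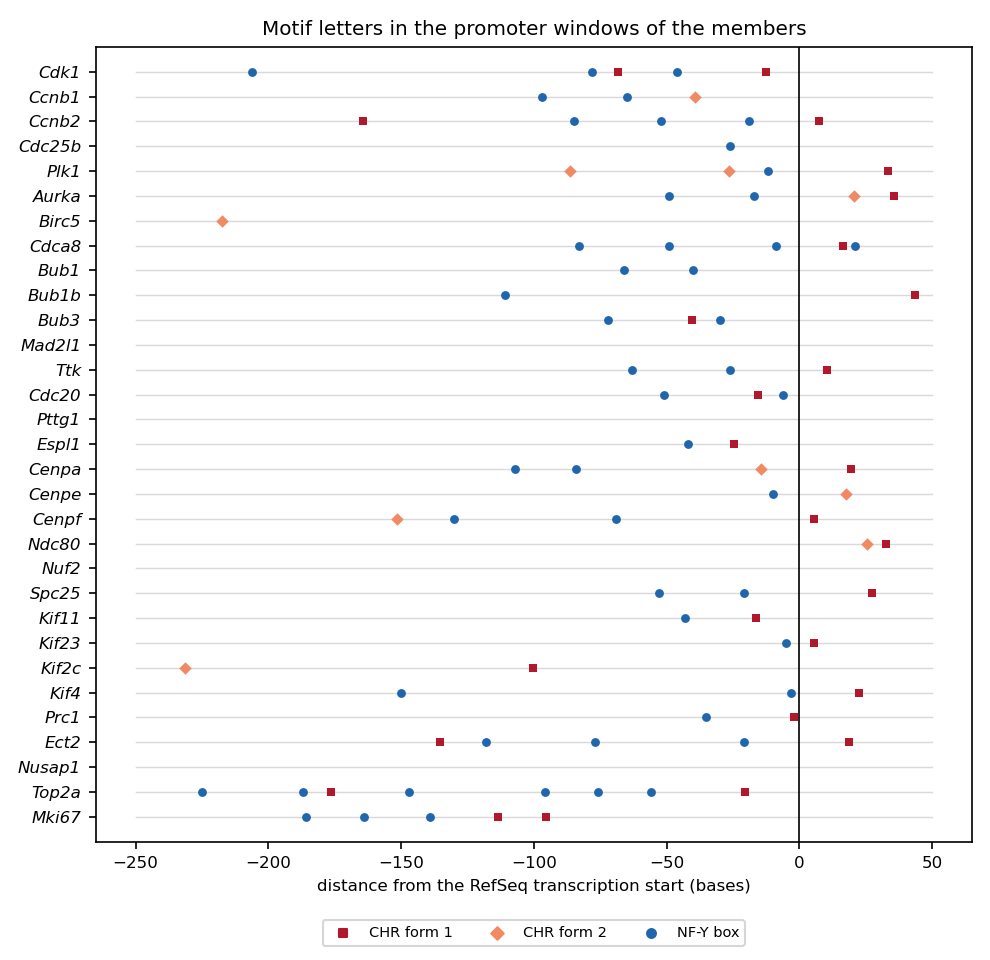
Matches of CHR form 1 (red squares), CHR form 2 (orange diamonds) and the NF-Y box (blue circles) in the first RefSeq window of each of 31 members, by distance in bases from the transcription start. The CHR matches gather near the start, and Mad2l1, Pttg1, Nuf2 and Nusap1 have no match.

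Among the genes of mitotic entry, none of 8 passed limma, with 2 at an unadjusted p under 0.05, and the median log2 difference was 0.36. Of all tested genes 30.1% passed (20.1% higher and 10% lower), and 43.6% had an unadjusted p under 0.05. The counts of each role below are to be read beside these shares. Cdk1, the mitotic kinase, stood at 97.1, 67.5 and 59.6 TPM in the AML mice and at 48.5, 56.4 and 44.8 TPM in the MPN mice. The groups did not overlap, and the log2 difference of 0.55 ± 0.19 (SE) had an adjusted p of 0.0681. Without AML replicate 3 it passed, at 0.69 and an adjusted p of 0.0340. Ccnb1, its cyclin, averaged 95.6 ± 23.5 and 67.1 ± 9.94 TPM without overlap (log2 difference 0.49, adjusted p = 0.0940). The phosphatase Cdc25b, which removes the brake phosphates from Cdk1, averaged 24.9 ± 7.99 and 17.1 ± 1.38 TPM without overlap (0.48), and AML replicate 1 alone reached 34.1. For the related Cdc25c the means were 14.3 ± 3.89 and 10.1 ± 2.06 TPM, with overlap (0.45). The remaining 4 overlapped and differed by less, namely Ccnb2 (105.8 ± 21.6 and 86.8 ± 8.13 TPM, 0.27), the Polo-like kinase Plk1 (62.0 ± 10.6 and 57.2 ± 7.63, 0.11), the S-phase and G2 cyclin Ccna2 (113.7 ± 22.0 and 107.7 ± 14.5, 0.07) and Aurka (43.4 ± 5.07 and 43.5 ± 2.67, -0.01). Aurora A, the spindle pole kinase, thus had nearly equal means, with a 95% interval of -0.31 to 0.29.

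In the chromosomal passenger complex, which corrects faulty attachments and guides cytokinesis, Cdca8 was 1 of 4 to pass, and the median log2 difference was 0.38. Its kinase Aurkb stood at 115.1, 80.4 and 81.4 TPM in the AML mice and at 66.2, 71.5 and 60.8 TPM in the MPN mice. The groups did not overlap, and the log2 difference was 0.46 ± 0.16 (SE), with an adjusted p of 0.0687. Incenp, the scaffold, averaged 92.5 ± 17.8 and 71.9 ± 7.99 TPM without overlap (0.35). Birc5, or survivin, averaged 136.8 ± 17.7 and 126.4 ± 8.09 TPM with overlap (0.11). The 2 Aurora kinases thus gave log2 differences of -0.01 and 0.46, and whether these differ was not tested.

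Of the spindle checkpoint and anaphase genes, 2 of 8 rose (Mad2l1 and Cdc20) and 1 fell (Pttg1), with a median log2 difference of 0.24. Those counts are 25% and 12.5% of the 8, against 20.1% and 10% of tested genes. Ttk, or Mps1, the kinase that starts checkpoint signalling, stood at 23.7, 22.2 and 19.1 TPM in the AML mice and at 17.03, 15.6 and 11.1 TPM in the MPN mice. Its groups did not overlap, and the log2 difference of 0.56 ± 0.19 (SE) had an adjusted p of 0.0596. It passed in the RPKM table (0.51, adjusted p = 0.0356). Bub3, which carries checkpoint kinases to the kinetochore, averaged 117.7 ± 12.6 and 98.4 ± 3.94 TPM without overlap (0.25). The checkpoint kinase Bub1 (24.3 ± 1.64 and 21.0 ± 4.84 TPM, 0.23) and its relative Bub1b, or BubR1 (65.5 ± 7.83 and 56.0 ± 4.53, 0.22), overlapped. Espl1, the separase that Pttg1 inhibits, averaged 21.7 ± 4.12 and 23.5 ± 2.01 TPM with overlap (-0.12).

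None of the 7 centromere and kinetochore genes passed limma and 0 of them had an unadjusted p under 0.05, where 30.1% and 43.6% of tested genes did. The median log2 difference, 0.12, was close to the 0.13 of all tested genes. Ndc80, the microtubule-binding subunit that gives the Ndc80 complex its name, was the only one of the 7 without overlap, at 27.6 ± 1.97 and 23.3 ± 2.78 TPM (0.24). Its partners Nuf2 (38.3 ± 4.24 and 33.2 ± 3.69 TPM, 0.20), Spc24 (51.9 ± 2.06 and 47.9 ± 5.92, 0.12) and Spc25 (37.3 ± 0.855 and 35.3 ± 2.89, 0.08) overlapped. Cenpa, the histone H3 variant that marks the centromere, averaged 84.8 ± 17.9 and 88.3 ± 8.19 TPM (-0.07). The motor Cenpe averaged 18.8 ± 3.40 and 18.9 ± 5.30 TPM (0.01), and Cenpf, a large kinetochore protein, 14.9 ± 3.72 and 12.8 ± 3.82 TPM (0.22). Cenpe and Cenpf were spread within MPN, where replicate 3 stood at 12.8 and 8.41 TPM and replicate 1 at 21.8 and 15.5 TPM.

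Of the 9 spindle motors and microtubule binders, only Ect2 passed, and the median log2 difference was 0.25, all 9 above 0. Tpx2, which activates Aurora A on the spindle, averaged 60.2 ± 8.70 and 48.9 ± 5.43 TPM without overlap (0.29). Nusap1, a microtubule binder of the spindle, did so as well at 55.7 ± 3.85 and 47.5 ± 2.19 TPM (0.22). Prc1, the bundler of the central spindle, averaged 62.9 ± 11.0 and 49.9 ± 6.28 TPM (0.32), with overlap. Among the kinesins, all overlapping, the pole-separating motor Kif11 averaged 69.5 ± 10.02 and 58.4 ± 10.6 TPM (0.26), and Kif20a, a motor of cytokinesis, 52.8 ± 7.86 and 43.9 ± 3.40 TPM (0.25). Kif2c, which takes microtubules apart, averaged 28.4 ± 3.37 and 23.7 ± 1.97 TPM (0.25), and the chromosome motor Kif4 23.1 ± 4.54 and 19.7 ± 3.12 TPM (0.22). Kif23, the central spindle motor subunit that binds the Ect2 pathway, averaged 52.4 ± 2.27 and 48.0 ± 3.10 TPM (0.12).

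The remaining pair is the most abundant. Top2a, the topoisomerase that untangles sister chromatids, ranked first among the members in both groups, at 180.5 ± 23.2 TPM in AML against 165.7 ± 25.7 in MPN (log2 difference 0.13, with overlap). Mki67, whose protein Ki-67 is the standard marker of dividing cells, stood at 179.7, 129.3 and 122.6 TPM in the AML mice and at 184.9, 170.4 and 99.3 TPM in the MPN mice. The lowest and the highest value of Mki67 were both in MPN mice, and the log2 difference was -0.05, with a 95% interval of -0.64 to 0.55. Neither passed limma, and 0 of the 2 had an unadjusted p under 0.05. By level among tested genes in MPN, the members ranged from percentile 29.5 (Cdc25c) to 93.5 (Top2a).

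The mice differed among themselves in a way that ran through most of the members. AML replicate 1 was the highest of the 6 mice for 32 of 38 members, and MPN replicate 3 was the lowest for 32. AML replicate 3 was the lowest for 5 members. Summed over the members, TPM was 2904, 2409 and 2176 in AML replicates 1 to 3 and 2252, 2298 and 1849 in MPN replicates 1 to 3. AML replicate 3 thus lay below MPN replicates 1 and 2 in this sum. In each of the 7 lists of other cell division genes described below, AML replicate 1 also had the highest sum and MPN replicate 3 the lowest. For the 27 DNA replication genes these were 3355 and 2002 TPM. The order is thus not particular to the members, and how many tested genes follow it was not counted. The median distance of a member from its MPN mean on the log2 scale was 0.40, 0.21 and 0.07 for the AML mice, and 0.09, 0.11 and -0.19 for the MPN mice. Over all tested genes the same medians were 0.20, 0.13 and 0.10, and 0.09, 0.03 and -0.11. AML replicate 1 also had the highest relative depth (1.28) and AML replicate 3 the lowest (0.742), and the part of depth in these values was not tested. Within groups the median SD on the log2 scale was 0.22 in AML and 0.16 in MPN, against 0.21 and 0.16 over tested genes.

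**Figure D4:**
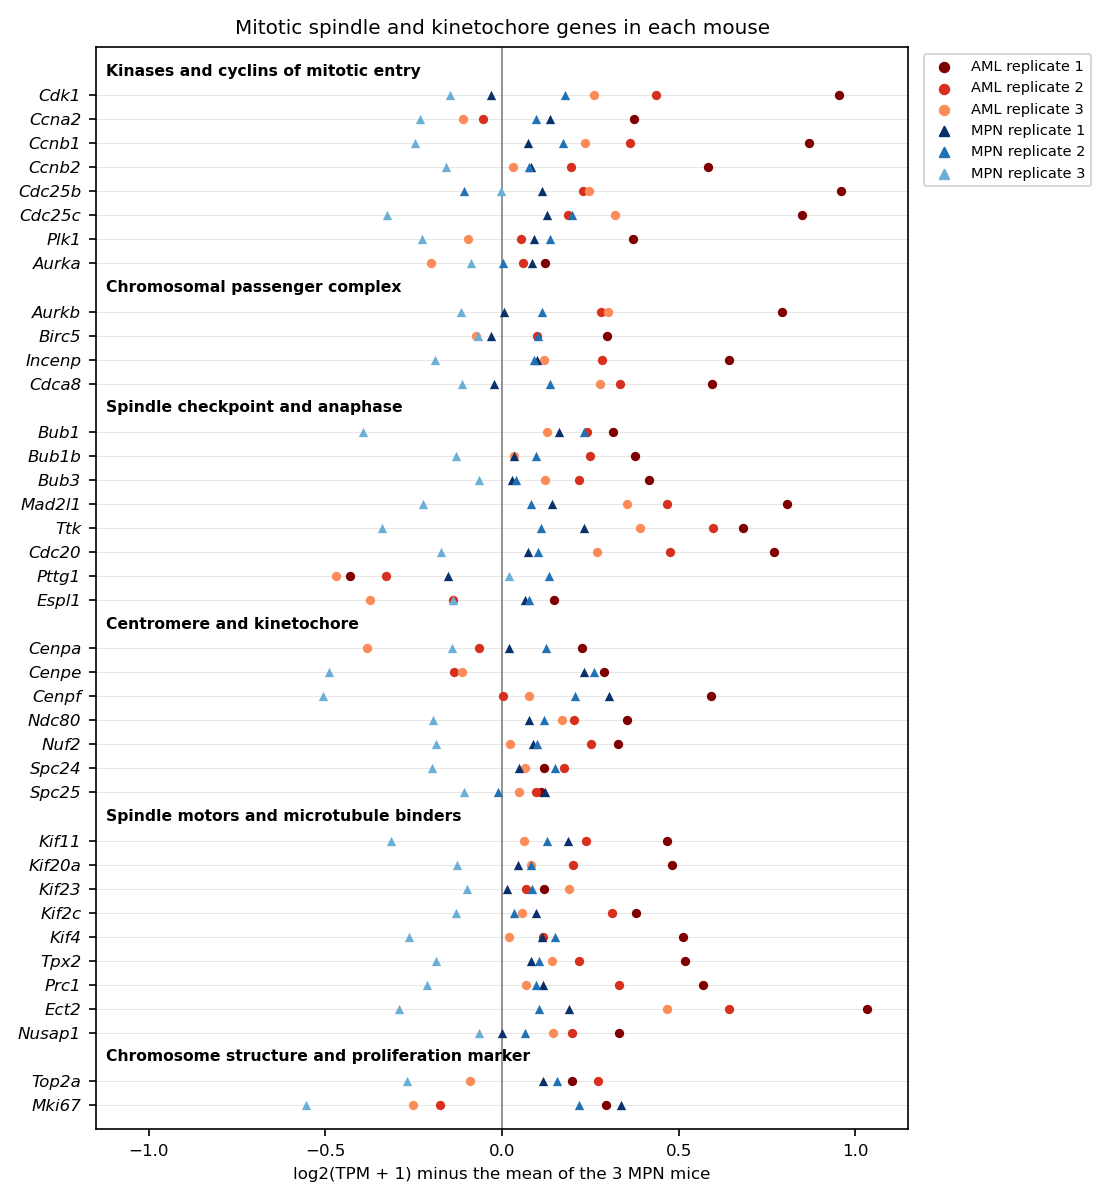
Level of each member in each mouse as log2(TPM + 1) minus the mean of the 3 MPN mice, by role (circles AML, triangles MPN). The darkest circle, AML replicate 1, is the rightmost point for 32 members, and the palest triangle, MPN replicate 3, is the leftmost for 32.

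Markers of other cells also differed between mice. The summed TPM of 17 erythroid markers was 2636, 976.2 and 195.8 in AML replicates 1 to 3, against 3981, 2050 and 970.1 in MPN replicates 1 to 3. In each group the mouse with the lowest erythroid sum also had the lowest mitotic sum, while MPN replicate 1 was highest for the erythroid sum and AML replicate 1 for the mitotic one. Much of the erythroid sum lay in globin rows, with Hba-a1 at 1089.8 and Hbb-b1 at 1468.5 TPM in MPN replicate 1. Hba-a1 stood at 0.08 TPM in MPN replicate 3. Its AML and MPN means were 49.1 and 434 in TPM but 345.6 and 382.6 in the RPKM table. A link between the 2 sums was not tested. Of the 17 erythroid markers, 2 passed limma as lower (Klf1 and Epb4.2), and 0 rose. The log2 difference was below 0 for all 17, with a median of -1.83, and 10 had an unadjusted limma p under 0.05. Markers of mature neutrophils summed to between 7434 and 21630 TPM in AML and between 31750 and 50430 TPM in MPN, where 8 of 10 fell. Of 9 tested macrophage markers 8 fell, with C1qa at 0 in AML replicates 2 and 3. The 10 measured macrophage markers summed to 78.6 to 188.6 TPM in AML against 397 to 527.3 in MPN. Of 11 T and NK cell markers 10 fell (4.21 to 7.39 against 83.6 to 113.8 TPM in sum), as did 5 of 6 tested B cell markers. The 8 measured B cell markers summed to 27.7 to 37.0 TPM in AML against 79.2 to 105 in MPN. Of 10 dendritic cell markers, 4 fell and 1, Flt3, rose (350.7 to 899.7 against 1399 to 1676). Of 11 stem and progenitor markers 8 rose and 2 fell (515.7 to 736.2 against 302.8 to 414.1 TPM). Of all tested genes, 20.1% rose and 10% fell. The part of these cell types in the mitotic levels was not tested.

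**Figure D5:**
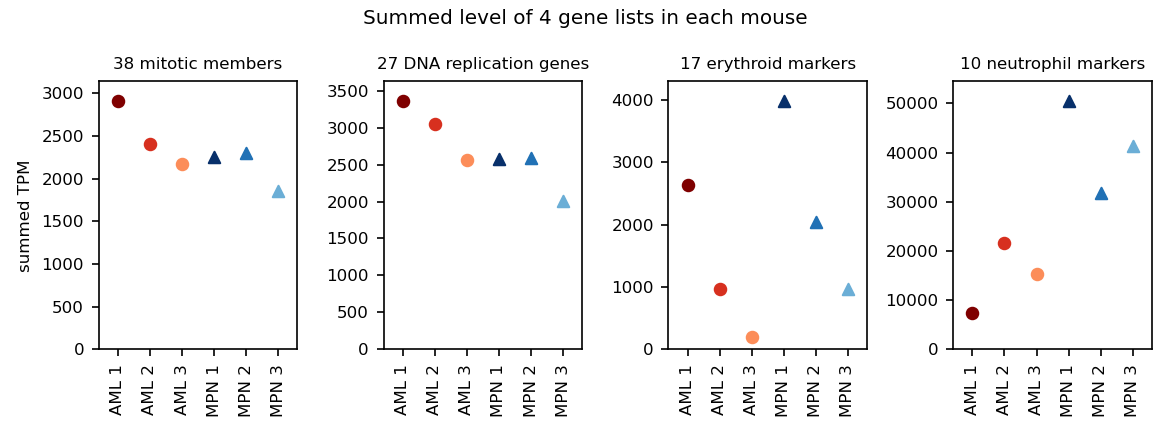
Summed TPM per mouse of the 38 mitotic members, 27 DNA replication genes, 17 erythroid markers and 10 neutrophil markers, with each axis starting at 0. The mitotic sums of the groups overlap (2176 to 2904 and 1849 to 2298), and the neutrophil sums do not.

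Other genes of the same machinery were read from 7 lists, also chosen with earlier results of these data known. Of 35 other kinetochore genes 7 rose (20%) and 0 fell, with a median log2 difference of 0.25. Cenpb, which binds a short box in centromeric repeats, stood at 93.3 ± 7.03 TPM in AML against 52.2 ± 1.25 in MPN (0.82 ± 0.10 SE, limma adjusted p = 0.00176). Pmf1 of the Mis12 complex (0.60, adjusted p = 0.0214) and Mad1l1, the kinetochore anchor of Mad2 (0.48, 0.0228), rose too. Of 16 genes of the anaphase-promoting complex and its regulators 2 rose and 0 fell (median 0.25), the subunits Anapc4 (0.49, adjusted p = 0.0314) and Anapc5 (0.39, 0.0416). None of 8 condensin subunits passed limma or had an unadjusted p under 0.05 (median 0.20).

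Of 40 further spindle, centrosome and cytokinesis genes 8 rose (20%) and 1 fell, with a median log2 difference of 0.28. The mitotic kinase Pbk stood at 67.5 ± 8.25 and 39.1 ± 2.50 TPM (0.77 ± 0.13 SE, limma adjusted p = 0.00484). Next came Haus4 (0.81, adjusted p = 0.00763) and Haus1 (0.70, 0.0104), subunits of augmin, the complex that branches new microtubules from old ones within the spindle. Of 27 DNA replication genes 6 rose and 1 fell (median 0.32). The helicase subunits Mcm6 (0.72, adjusted p = 0.0123) and Mcm3 (0.62, 0.0228) rose, and Ccne1, the cyclin of the G1 to S step, fell from 43.7 ± 11.9 to 22.6 ± 4.26 TPM (-0.90, 0.0267).

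Among 10 further regulators of mitotic entry, most of them brakes or phosphatases, 2 rose and 0 fell (median 0.18). Cdkn1a, which encodes the cyclin-dependent kinase inhibitor p21, stood at 53.2, 42.1 and 41.9 TPM in the AML mice and at 12.8, 14.5 and 17.3 TPM in the MPN mice. Its groups lay far apart, with a log2 difference of 1.56 ± 0.16 (SE) and a limma adjusted p of 0.000862. Wee1, the kinase that holds Cdk1 inactive, averaged 36.7 ± 8.98 and 21.5 ± 2.34 TPM (0.72, adjusted p = 0.0340). Of 20 cell cycle transcription regulators 2 rose and 1 fell (median 0.24). Rbbp4, a subunit of the MuvB complex that binds CHR elements (0.45, adjusted p = 0.0231), and Tfdp1, the partner of E2F factors (0.63, 0.0247), rose, and the E2F restrainer Rb1 fell (-0.59, 0.0448). Set side by side with the background, the share that rose was 10% to 22.2% in the lists with a rise, against 20.1% of tested genes.

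The RPKM table (reads per length and depth), a second quantification of the same libraries, gave 4 members higher and 1 lower, where 31.3% of the 12811 genes tested in it passed. Ect2, Mad2l1, Cdc20 and Pttg1 passed there as well, with log2 differences of 0.69, 0.67, 0.51 and -0.43. Cdca8 did not pass (0.38, limma adjusted p = 0.0529), and Ttk did.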

How the data were processed

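TPM values, deposited by the authors, are gene-level RSEM output per the file headers, with 1 column per mouse and rows named by symbol. RPKM values, also deposited, have Ensembl identifiers, of which 25213 of 25991 matched a symbol. Their low values show 1 read added per gene, and the size of that step gave relative depth. TPM keeps no depth, so precision rests on the 3 mice per group. TopHat2, RSEM, Bowtie2, mm9 and mm10 are named per the submitters' processing notes, without role or version. Poly-A RNA was read as pairs of 75 bases from stranded TruSeq libraries, per the labels' protocols.

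Of 24054 genes, the 12223 that reached 1 TPM in 3 or more of 6 libraries were tested as log2(TPM + 1), using limma 3.58.1 (R 4.3.3; trend, two-sided, no covariate) at an adjusted p under 0.05. The log scale understates changes of low genes. The script was tested on simulated data. Alternatives were pseudocounts of 0.1 and 5, no filter or one at 5 TPM, scaling by medians or by quantiles, the RPKM table, no trend, array weights, a term for sex as inferred from Xist (above 10 TPM), and leaving out each mouse. Members and lists were chosen with earlier results of these data known. All members are named, and of each pathway list the up to 3 passing genes with the smallest adjusted p. Promoters came from RefSeq (GRCm38.p6) and positions from GENCODE M21. Protein sequences were not analysed here, and 27 date-like symbols are never named. Replicates are numbered in accession order.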

Additional observations from a re-analysis of the deposited data

How the results depend on the processing

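No paired analysis was possible because the labels give no replicate numbers shared between groups. Under 16 alternatives, 527 of 608 member values kept direction and side of the threshold, 44 lost and 5 gained a call, and 32, all of 11 members without a call, changed sign. With 4 members higher and 1 lower in the reported analysis, no filter left 0 higher, limma without trend 1 higher and 0 lower, and the term for sex 0 and 0. The last, with 1208 tested genes passing against 3678, compares AML replicate 3, the 1 AML mouse inferred to be male, with MPN and takes its variation to be that of the others. Of tested genes, 20.6% of 17949 passed with no filter and 28.5% of 12223 without trend, against 30.1% in the reported analysis. Leaving out 1 mouse gave 0 to 5 members higher, 0 to 0 lower and 2009 to 3705 genes passing, with fewer samples in each fit. The call of Cdca8 ended in 13 alternatives, those of Mad2l1, Cdc20 and Pttg1 in 8 each and that of Ect2 in 7. The causes of other changes were not tested.

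Changed signs, as log2 differences, were these. Under median scaling Ccna2 was -0.014 and Cenpe -0.071. Under quantile normalization they were -0.0090 and -0.077. In the RPKM table Aurka was 0.0095. With array weights Ccna2 was -0.11, Plk1 -0.074, Birc5 -0.011, Cenpe -0.31, Cenpf -0.10 and Kif4 -0.0014. With the term for sex Ccna2 was -0.11, Plk1 -0.096, Birc5 -0.075, Cenpe -0.11 and Top2a -0.090. Leaving out 1 mouse moved Ccna2 from -0.083 to 0.16, Plk1 from -0.021 to 0.21, Cenpe from -0.23 to 0.14, Cenpf from -0.031 to 0.37, Top2a from -0.0075 to 0.23, Aurka from -0.07 to 0.090, Espl1 from -0.26 to 0.0037, Cenpa from -0.22 to 0.080 and Mki67 from -0.32 to 0.12.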

Other observations

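The augmin subunits read here, Haus1 to Haus6 and Haus8, did not move as a block. Haus7 was not in the list. Those beyond Haus1 and Haus4 were picked after their values were seen. Haus8, a microtubule-binding subunit, fell in AML, at 16.6, 31.2 and 25.5 TPM against 49.6, 54.6 and 86.7 TPM in the MPN mice, by 1.35 ± 0.28 (SE) on the log2 scale with a limma adjusted p of 0.0118. Haus2 rose (23.9 ± 4.51 and 14.4 ± 1.68 TPM, log2 difference 0.69, adjusted p = 0.0234), but not in the RPKM table (0.40, 0.0596), where Haus1 and Haus4 passed (0.00812 and 0.00823). Haus3 (log2 difference 0.62, adjusted p = 0.0883), Haus6 (0.50, 0.128) and Haus5 (0.05, 0.768) did not pass limma.

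Foxm1 and Mybl2, activators of late cell cycle genes and likewise picked after their values were seen, did not pass limma on TPM. Foxm1 averaged 29.3 ± 3.30 TPM in AML against 32.0 ± 3.24 in MPN, with overlap. Mybl2 stood at 63.5, 37.8 and 39.5 TPM in the AML mice and at 31.7, 30.04 and 19.7 TPM in the MPN mice, without overlap (log2 difference 0.76 ± 0.25 SE, adjusted p = 0.0591), and passed in the RPKM table (0.70, adjusted p = 0.0488).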
